A study of Homo sapiens with 4 samples.

Results

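Tubulin isotypes are the closely related proteins, each from its own gene, that pair as one alpha and one beta chain to build microtubules. The genes described here are 10 named alpha- and beta-tubulin genes, TUBA1A, TUBA1B, TUBA1C, TUBA4A, TUBB, TUBB2A, TUBB2B, TUBB3, TUBB4B and TUBB6, taken by name from that family. A gene was measured where a row of the array table carried its symbol and no other, which held for 9 of the 10 and for 21469 genes in all. All 4 alpha-tubulins and 5 of the 6 beta-tubulins had 1 such row each. The single row with the symbol of TUBB3, the neuronal beta-tubulin, also carried MC1R, the melanocortin receptor gene, so no value is given for TUBB3.

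The cells were U2OS, a line grown from a human osteosarcoma, and their RNA was read on 4 Affymetrix Human Transcriptome Arrays 2.0, 2 from cells given the solvent DMSO and 2 from cells given nocodazole. Both groups were serum-starved for 24 h, blocked with thymidine for 24 h, released for 3 h and then kept in DMSO or nocodazole for 48 h. The word PLKO.1 stands in the titles of both groups and is not explained there. The series title asks about secreted factors of cells after mitotic slippage, and the labels give neither the share of cells that had slipped nor the dose of nocodazole. Replicates are numbered 2 and 3 in the titles and are biological ones by the series text, and the p-values measure only the spread between these arrays.

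Nocodazole binds beta-tubulin and keeps dimers from assembling, so microtubules are lost and the pool of free tubulin grows. Animal cells are known to adjust tubulin mRNA to that pool. When free tubulin is plentiful, the factor TTC5 recognises the first residues of alpha- and beta-tubulin chains as they leave the ribosome and, through SCAPER and the CCR4-NOT deadenylase, the mRNA being translated is degraded, a process called tubulin autoregulation. Several tubulin genes are also expressed more in dividing cells. TUBA1B, TUBA1C, TUBB and TUBB4B are broadly expressed, TUBA1A, TUBB2A and TUBB2B are prominent in the nervous system, TUBB6 is found in many non-neuronal tissues, and TUBA4A is abundant in platelets and mature neurons.

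With nocodazole, every one of the 9 measured isotypes was lower on both nocodazole arrays than on both DMSO arrays, as deposited and after quantile normalization. After quantile normalization, which gives all arrays the same distribution of values and so removes a shift shared by a whole array, their median log2 change was -0.43 and the range was -0.67 to -0.16, so nocodazole levels were between 62.7% and 89.3% of DMSO levels. TUBB, TUBA1A, TUBB4B and TUBA1B were the lowest, and TUBA1C and TUBB6 changed least. No isotype passed limma's test after quantile normalization at an adjusted p of 0.05, while 8 of 9 were called lower on the values as deposited, where most genes of the array were lower too.

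Both counts have to be read against the whole array. As deposited, 24.9% of all genes were called lower by limma and 66.3% lay lower on both nocodazole arrays than on both DMSO arrays, and the median change of all genes was -0.45. The median change of 155 rows for ERCC spike-in controls was -0.42, but these rows lay near background. Their median was 5.34 on DMSO replicate 2 and 4.30 on nocodazole replicate 3, where antigenomic background rows had medians of 4.81 and 3.72. After quantile normalization the median of all genes was -0.01, 0.0978% of genes were called lower and 0.182% higher, and 20.1% lay lower on both nocodazole arrays. The isotypes' median minus that of all genes was -0.35 on the log2 scale as deposited and -0.41 after quantile normalization. As deposited that difference was -0.61 without DMSO replicate 2, -0.20 without DMSO replicate 3, -0.26 without nocodazole replicate 2 and -0.57 without nocodazole replicate 3. The number of isotypes called as deposited was 5 without DMSO replicate 3, where 36.2% of all genes were called lower, and 4 without nocodazole replicate 2, where 7.42% were. Unadjusted, 7 of 9 isotypes had a limma p under 0.05 after quantile normalization, where 5.44% of all genes were lower with such a p. With other settings 1 isotype passed: TUBB4B after cyclic loess normalization, where 0.247% of genes were called lower, and TUBB when dim genes were left out, where 0.323% were. After each array was centred on its median 0 isotypes passed, and 0.00466% of genes were called lower. In bulk RNA, fewer cells expressing a gene and less RNA per cell cannot be told apart.

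Promoter sequence is shown for 5 isotypes, picked by how their values relative to the other measured isotypes moved with nocodazole. TUBB, TUBB4B and TUBA1A became lower relative to the rest, and TUBA1C and TUBB6, which changed least, became higher. Each line gives the 250 bases before an annotated transcription start, 5′ to 3′, from RefSeq (GRCh38.p14). Capitals mark the letters CCAAT on either strand, so ATTGG stands for the motif on the opposite strand. The CCAAT box is bound by the factor NF-Y and is common in promoters of genes of the dividing cell. The windows are chr6:30720102-30720351 on the plus strand for TUBB, chr9:137241037-137241286 on the plus strand for TUBB4B, chr12:49189081-49189330 on the minus strand for TUBA1A, chr12:49264832-49265081 on the plus strand for TUBA1C and chr18:12307991-12308240 on the plus strand for TUBB6.
TUBB: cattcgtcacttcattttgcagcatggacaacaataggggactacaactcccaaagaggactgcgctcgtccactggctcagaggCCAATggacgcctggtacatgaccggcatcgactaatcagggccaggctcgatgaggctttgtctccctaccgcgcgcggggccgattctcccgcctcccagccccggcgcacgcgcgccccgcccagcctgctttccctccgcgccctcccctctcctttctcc
TUBB4B: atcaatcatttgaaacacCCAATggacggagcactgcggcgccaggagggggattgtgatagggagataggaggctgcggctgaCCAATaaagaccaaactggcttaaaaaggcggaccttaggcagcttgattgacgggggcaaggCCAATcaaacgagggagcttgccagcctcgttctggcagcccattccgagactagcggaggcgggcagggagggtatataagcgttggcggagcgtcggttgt
TUBA1A: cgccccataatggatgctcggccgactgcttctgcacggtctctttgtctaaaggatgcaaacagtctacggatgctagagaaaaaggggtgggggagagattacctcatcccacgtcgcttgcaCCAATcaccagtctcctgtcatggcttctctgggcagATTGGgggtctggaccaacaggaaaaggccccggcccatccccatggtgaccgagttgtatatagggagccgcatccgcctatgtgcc
TUBA1C: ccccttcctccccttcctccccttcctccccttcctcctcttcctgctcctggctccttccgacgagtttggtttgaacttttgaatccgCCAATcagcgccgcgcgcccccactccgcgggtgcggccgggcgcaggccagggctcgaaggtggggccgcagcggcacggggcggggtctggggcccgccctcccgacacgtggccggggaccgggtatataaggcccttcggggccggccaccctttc
TUBB6: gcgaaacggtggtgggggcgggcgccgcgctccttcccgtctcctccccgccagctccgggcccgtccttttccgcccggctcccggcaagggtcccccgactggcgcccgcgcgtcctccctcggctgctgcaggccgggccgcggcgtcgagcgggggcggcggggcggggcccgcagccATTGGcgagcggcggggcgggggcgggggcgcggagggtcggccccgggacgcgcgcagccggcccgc

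The table held 15 windows for the 10 genes. TUBB, TUBB3 and TUBB6 had 2 starts and TUBA1C had 3, of which the first and second windows overlap, and the windows shown for TUBB, TUBA1C and TUBB6 are 1 of those. CCAAT was found in 9 of the 15 windows, where 32.0% of 35116 windows of the same length held it. The overlapping windows of TUBA1C count the same site in each. By gene, CCAAT was in at least 1 window of 7 of the 10, and no share by gene was computed for all genes. TUBB4B held 3 copies, starting 232, 166 and 103 bases before the start of transcription (positions -232, -166 and -103). TUBA1A held 2, in opposite orientations at -125 and -88. Of the 35116 windows, 9.53% held 2 or more copies. TUBA1B, TUBA4A and TUBB2A held 0. The letters TATAA, the core of the TATA box, were found in 5 of the 15 windows against 18.9% of all windows, at -27 in TUBB4B and at -31 in the TUBA1C window shown. TTTGAA, one form of the cell-cycle homology region, was found in 3 windows against 13.3%, at -178 and -170 in the TUBA1C window shown and at -242 in TUBB4B. TGACG, which is part of the cyclic AMP response element, was found in 4 windows against 21.2%. All motifs were searched on both strands, and matches of 1 motif to opposite strands overlapped in TUBB2A, where TGACG was matched at -60 and -57. The CCAAT letters were present both in isotypes that changed most and in those that changed least. The other window of TUBB and the other window of TUBB6, which are not shown, held 0 copies, so presence in these genes depends on the start chosen.

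The 4 alpha-tubulin genes had log2 changes of -0.65 to -0.19 after quantile normalization, with a median of -0.40. TUBA1A, the main alpha-tubulin of developing neurons, stood at 8.96 and 8.92 on DMSO replicates 2 and 3 and at 7.66 and 7.95 on nocodazole replicates 2 and 3 as deposited. The lower DMSO array was 0.97 above the higher nocodazole array, the widest gap of the 9 isotypes. Its change as deposited was -1.13 ± 0.15 (SE, n = 2 per group; limma adjusted p = 6.18e-06), or 45.7% of the DMSO level. After quantile normalization its mean went from 8.70 ± 0.09 to 8.05 ± 0.16 (SD, n = 2), a change of -0.65 ± 0.13 (limma adjusted p = 0.107).

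TUBA1B, a ubiquitous alpha-tubulin, read 12.51 and 12.73 on the DMSO arrays and 11.69 and 11.95 on the nocodazole arrays as deposited. The groups did not overlap, and it was the one measured isotype that limma did not call on the deposited values, at -0.80 ± 0.38 (limma adjusted p = 0.119). After quantile normalization it went from 12.48 ± 0.07 to 11.97 ± 0.04 (SD, n = 2), a change of -0.51 ± 0.10 (limma adjusted p = 0.0994). The standard errors draw on the spread of rows of like level, and those of TUBA1B and TUBB were wider on the deposited values than after quantile normalization.

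TUBA1C, another broadly expressed alpha-tubulin, stood at 9.94 and 10.02 with DMSO and at 9.16 and 9.43 with nocodazole as deposited. Its deposited change of -0.68 ± 0.16 passed the test (limma adjusted p = 0.00406). After quantile normalization the arrays read 9.78 and 9.69 against 9.49 and 9.60, so that 0.08 separated the groups. The change there was -0.19 ± 0.11 (limma adjusted p = 0.697), and 20.2% of all genes had a lower one.

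TUBA4A, the alpha-tubulin of platelets, read 8.32 and 8.42 with DMSO and 7.62 and 7.56 with nocodazole as deposited, a change of -0.78 ± 0.14 (limma adjusted p = 0.000407). After quantile normalization the values were 8.10 and 8.14 against 7.89 and 7.78. Both nocodazole arrays stayed below both DMSO arrays, and the change was -0.29 ± 0.12 (limma adjusted p = 0.494).

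**Figure D1:**
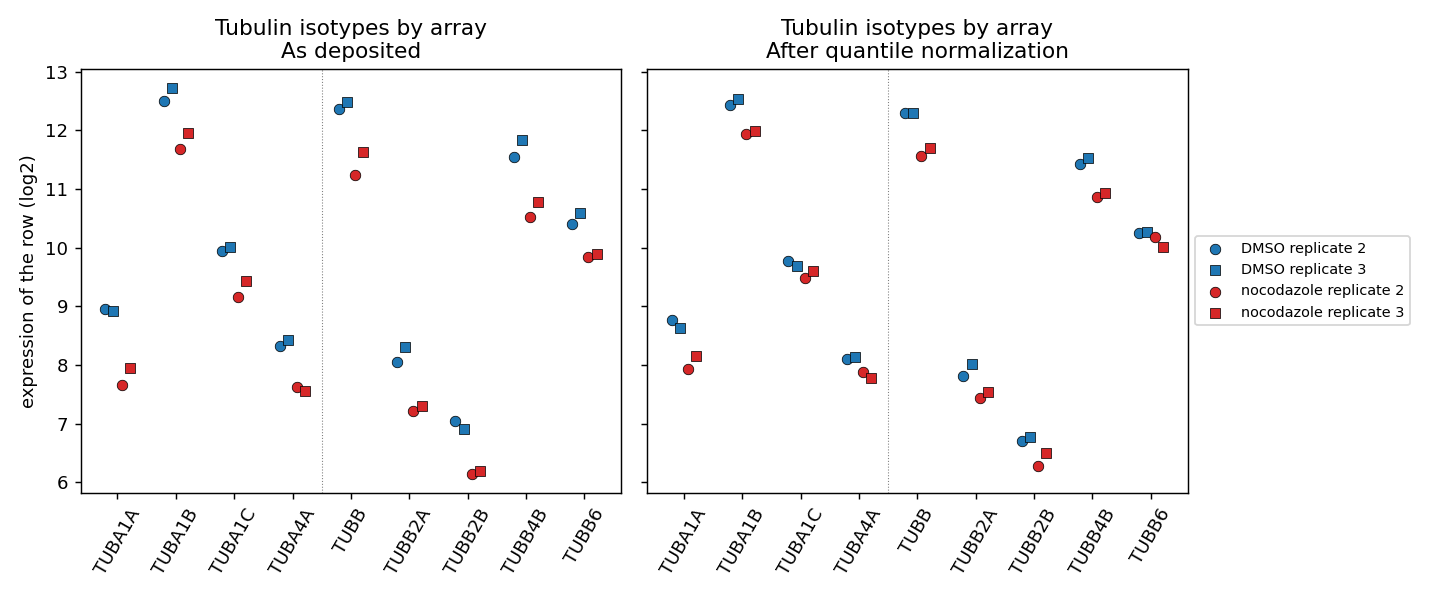
Expression of the row of each measured isotype (log2, vertical axis) on each of the 4 arrays, as deposited on the left and after quantile normalization on the right, with DMSO in blue, nocodazole in red, replicate 2 as circles and replicate 3 as squares. For all 9 isotypes both red points lie below both blue points in each panel, by as little as 0.07 for TUBB6 after quantile normalization.

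The 5 measured beta-tubulin genes had changes of -0.67 to -0.16 after quantile normalization, with a median of -0.43. TUBB, the main beta-tubulin of dividing cells, read 12.36 and 12.49 with DMSO and 11.24 and 11.63 with nocodazole as deposited, a change of -0.995 ± 0.34 (SE, n = 2 per group; limma adjusted p = 0.0335). After quantile normalization the DMSO arrays lay close together, at 12.30 on both, and the nocodazole arrays read 11.56 and 11.69. The change of -0.67 ± 0.10 was the lowest of the 9 isotypes, and 1.27% of all genes had a lower one. It lay just outside the threshold in the main fit (limma adjusted p = 0.0556). That p depended on the setting. It was 0.0352 without dim genes, 0.256 without limma's trend of variance with level and 0.9998 after median centring.

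TUBB4B, a beta-tubulin of most tissues and of cilia, stood at 11.54 and 11.83 with DMSO and 10.52 and 10.78 with nocodazole as deposited. That change, -1.04 ± 0.25, passed (limma adjusted p = 0.00448). After quantile normalization its mean went from 11.48 ± 0.08 to 10.90 ± 0.05 (SD, n = 2), a change of -0.59 ± 0.10 (limma adjusted p = 0.0753). The gap between the groups there, 0.50, was wider than the difference within either group.

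TUBB2A and TUBB2B, neighbouring genes of chromosome 6 with nearly identical products, were lower by similar amounts. TUBB2A read 8.05 and 8.30 with DMSO and 7.21 and 7.31 with nocodazole as deposited, and TUBB2B, the dimmest row of the 9, read 7.04 and 6.90 against 6.15 and 6.20. Their changes after quantile normalization were -0.43 ± 0.13 for TUBB2A (limma adjusted p = 0.309) and -0.36 ± 0.15 for TUBB2B (limma adjusted p = 0.497). Genes this alike can share probe sequence, and the files do not give the probes, so their values may not be independent. The same holds for TUBA1A, TUBA1B and TUBA1C on chromosome 12.

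TUBB6, a divergent beta-tubulin isotype, read 10.40 and 10.59 with DMSO and 9.84 and 9.90 with nocodazole as deposited, a change of -0.63 ± 0.18 (limma adjusted p = 0.0139). After quantile normalization it read 10.25 and 10.28 against 10.19 and 10.02. The groups were then 0.07 apart, and the change of -0.16 ± 0.11 was the smallest of the 9 (limma adjusted p = 0.759).

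The order of the changes was therefore TUBB, TUBA1A, TUBB4B, TUBA1B, TUBB2A, TUBB2B, TUBA4A, TUBA1C and TUBB6 from lowest to highest after quantile normalization. Neighbours in that order differed by 0.02 to 0.10, less than the standard error of either, which ran from 0.10 to 0.15 over the isotypes. To see the isotypes against each other without any shift common to an array, each was set against the mean of the other 8 on the same array. The 9 shifts on that within-array scale balance out by construction, so some had to be lower and others higher. Groups did not overlap for 5 of 9 isotypes as deposited and for 7 of 9 after quantile normalization. The 5 lay on the same side both as deposited and after quantile normalization. TUBB, TUBA1A and TUBB4B were lower relative to the others, and TUBA1C and TUBB6 were higher.

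For TUBA1A the difference from the other 8 was -1.09 and -1.28 on the DMSO arrays and -1.52 and -1.35 on the nocodazole arrays after quantile normalization, a shift of -0.25. TUBB went from 2.89 and 2.85 to 2.55 and 2.63, a shift of -0.28, and TUBB4B from 1.91 and 1.99 to 1.77 and 1.77, a shift of -0.18. On the other side, TUBA1C went from 0.06 and -0.09 to 0.23 and 0.28, a shift of 0.27. TUBB6 went from 0.59 and 0.57 to 1.01 and 0.74, a shift of 0.30. For TUBB on the deposited values the separation was small, with 2.77 and 2.78 for DMSO against 2.51 and 2.74 for nocodazole. TUBB2A and TUBB2B overlapped on both scales, and TUBA1B and TUBA4A overlapped as deposited. Of all genes set against the mean of the 9 isotypes, 1.48% lay lower and 78.1% higher without overlap after quantile normalization. As deposited the shares were 1.31% and 51.5%. That mean was itself lower with nocodazole, so a lean of all genes to the higher side follows from it. Each isotype was set against the other 8 instead, so these shares are no base rate for the isotypes' own separations. No share of all genes for both scales at once was computed. These within-array differences were not tested, because 2 arrays against 2 allow an exact two-sided permutation p no smaller than 0.333.

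**Figure D2:**
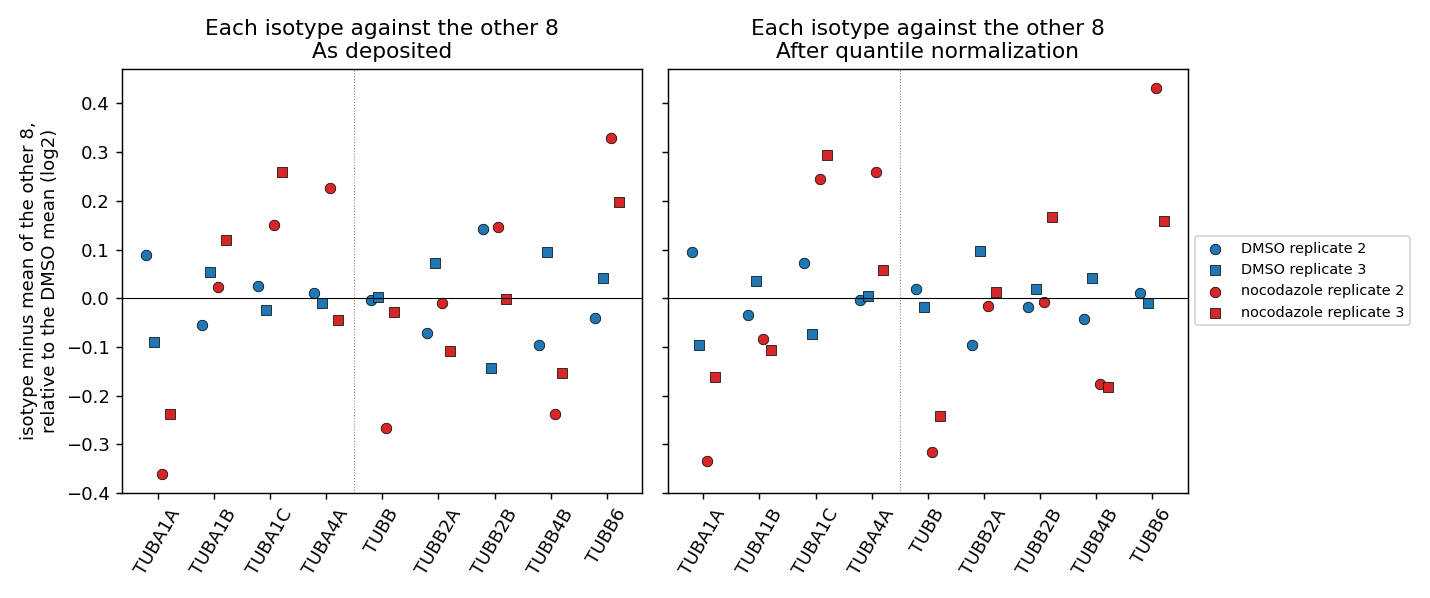
Each isotype minus the mean of the other 8 on the same array, drawn relative to its own DMSO mean (log2, vertical axis), as deposited on the left and after quantile normalization on the right. DMSO is blue, nocodazole red, replicate 2 circles and replicate 3 squares. Red points of TUBA1A, TUBB and TUBB4B lie below the blue ones and those of TUBA1C and TUBB6 above them in both panels.

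The change was next set against the level of each row. A row's level is its brightness on the array, which depends on its probes as well as on RNA, so levels do not rank the isotypes by abundance. Mean levels after quantile normalization ran from 6.56 for TUBB2B to 12.23 for TUBA1B, and 64.5% of all genes were dimmer than TUBB2B while 99.9% were dimmer than TUBA1B and TUBB. Over the 9 isotypes Spearman's rho of change with level was -0.35 and Pearson's r -0.35 after quantile normalization, and rho was -0.15 and r -0.06 as deposited. With any 1 isotype left out, rho ran from -0.48 to -0.14 after quantile normalization and from -0.31 to 0 as deposited. These points come from the same 4 arrays. TUBA1A, at a level of 8.37, was among the lowest changes, and TUBB6, at 10.18, was the highest, so change did not simply follow level.

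Genes of like level gave the backdrop at each row's brightness. Among the other genes whose mean lay within 0.5 of TUBA1A, 1499 in number, the median change was -0.02 after quantile normalization and 1.60% had a lower change than TUBA1A. For TUBB4B the window held 49 genes with a median of -0.01, of which 2.04% were lower. TUBB and TUBA1B lay where rows are few, with 18 and 11 genes in their windows, medians of 0.07 and 0.06, and none of those genes lower. For TUBA1C and TUBB6, 21.7% of 383 and 22.5% of 178 genes of like level were lower. As deposited the medians of these windows were -0.28 for TUBB, -0.26 for TUBA1B, -0.51 for TUBA1A and -0.45 for TUBB6, so the array-wide shift was smaller around TUBB and TUBA1B, the brightest isotype rows. All 9 rows lay above the median of 23 antigenomic background rows on every array, by 1.79 at least for TUBB2B and 6.88 at least for TUBB. Of the 21469 genes, 16688 lay above that median on every array. Those background rows rose with the GC content in their names, from 1.11 to 12.09, and the GC content of the tubulin probes is not given here.

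**Figure D3:**
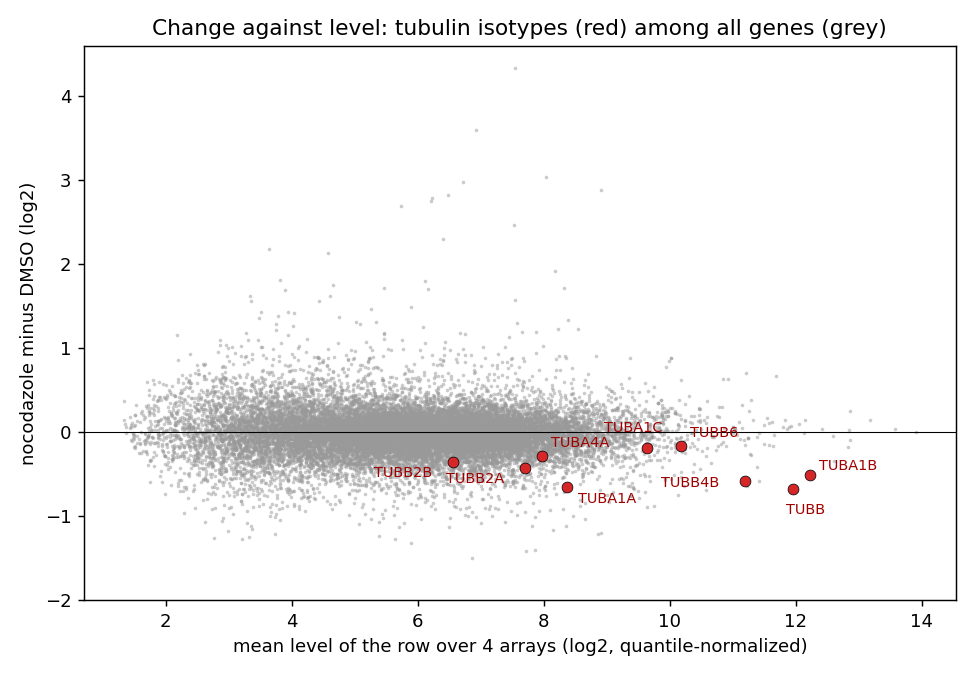
Log2 change, nocodazole minus DMSO (vertical axis), against the mean level of the row over 4 arrays (log2, horizontal axis), both after quantile normalization, with 1 grey point for each of 21469 genes and the 9 tubulin isotypes in red. The isotypes all lie below 0, from -0.16 for TUBB6 to -0.67 for TUBB.

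Between replicates most isotypes differed one way and the array median the other. As deposited, 7 of 9 were higher on DMSO replicate 3 than on DMSO replicate 2, TUBB4B by 0.29 and TUBB2A by 0.25, while the median of all genes was lower on replicate 3, at -0.27. Between the nocodazole arrays 8 of 9 were higher on replicate 3, TUBB by 0.39, against a median of -0.14 for all genes. When each array was centred on its median, a scale that leaves this difference in place, TUBB read 11.94 and 12.50 with DMSO and 11.30 and 11.98 with nocodazole. On that scale 7 of the 9 isotypes overlapped between the groups, TUBA1A and TUBB2B being the exceptions, against 15.5% of all genes that lay lower without overlap. All 9 changes stayed below 0 there, from -0.71 for TUBA1A to -0.21 for TUBB6, and none passed (limma adjusted p = 0.963 for TUBA1A).

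Among other genes of the tubulin family, 4 of 8 further alpha- and beta-tubulin genes were measured and 0 passed limma's test after quantile normalization. Of these, TUBA3E alone had an unadjusted limma p under 0.05, where 5.44% of all genes were lower with such a p. Their median change was -0.09 against -0.01 for all genes. TUBA3E and TUBB4A, called lower as deposited, had changes of -0.54 ± 0.13 and -0.19 ± 0.16 (limma adjusted p = 0.218 and 0.855). The gamma-, delta- and epsilon-tubulin genes, whose products serve microtubule nucleation and centrioles rather than the polymer itself, had a median of -0.31 over 4 members. Of them 3 were called lower as deposited, against 24.9% of all genes, and 0 after quantile normalization. There limma's unadjusted p was under 0.05 for 2, both lower, against 5.44% of all genes. TUBG2 and TUBG1, which encode gamma-tubulins, had changes of -0.36 ± 0.12 and -0.33 ± 0.10 (limma adjusted p = 0.341 and 0.326).

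The lists of genes that fold tubulin had medians of -0.12 to 0.05 after quantile normalization, with members on both sides of 0. The 5 measured of 6 tubulin cofactor genes, whose products assemble the alpha-beta dimer, had a median of 0.05 and a range of -0.03 to 0.15, and the 6 prefoldin genes had a median of 0.05 and a range of -0.38 to 0.38, with VBP1, a prefoldin subunit, at -0.38 ± 0.15 (limma adjusted p = 0.477). The CCT chaperonin, which folds new tubulin and actin, had a median of -0.12 and a range of -0.27 to 0.08 over 6 measured of 8 subunits, with CCT3 at -0.27 ± 0.11 (limma adjusted p = 0.514). Of these 3 lists 3, 2 and 5 genes were called lower as deposited, against 24.9% of all genes. After quantile normalization 0 passed limma's test. On that scale 0 cofactor genes, 2 prefoldin genes in opposite directions and 1 CCT gene, CCT3, had an unadjusted limma p under 0.05. Of all genes 5.44% were lower with such a p.

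TTC5 and SCAPER, factors of tubulin autoregulation, and 9 measured CCR4-NOT genes formed a list of 11 with a median of -0.14 and a range of -0.29 to 0.13. As deposited 9 of them were called lower, against 24.9% of all genes. After quantile normalization 0 passed limma's test and 0 had an unadjusted p under 0.05. Of all genes 5.44% were lower with such a p. TTC5 itself, named for its role and not by size of change, had a change of -0.22 ± 0.15 (limma adjusted p = 0.785). Other cytoskeletal genes, the actins and intermediate filament genes, had a median of -0.09 over 8 members. Of these 4 were called lower as deposited, against the same 24.9%, and 0 after quantile normalization. There 2 were lower at an unadjusted limma p under 0.05, against the same 5.44%. Stathmins, which bind tubulin dimers, had 2 measured members of 4, neither of which passed on either scale. STMN2, the stathmin of neurons and the 1 with an unadjusted p under 0.05, was at 0.97 ± 0.16 (limma adjusted p = 0.0686). Its row was dim, at 5.59 and 5.01 with DMSO and 5.88 and 5.84 with nocodazole as deposited. Background medians on those arrays were 4.81, 4.02, 4.36 and 3.72. The change as deposited was 0.56 ± 0.30 (limma adjusted p = 0.155).

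Of 9 measured mitotic reference genes, 2 passed after quantile normalization, both lower, where 0.0978% of all genes were called lower, and 7 did not pass. All 9 lay lower on both nocodazole arrays, where 20.1% of all genes did, with a median change of -0.56 and a range of -1.11 to -0.33. MKI67, the gene of the Ki-67 antigen of cycling cells, fell by 1.11 on the log2 scale (limma adjusted p = 0.0352), and CENPF, which encodes a kinetochore protein, fell by 0.94 (limma adjusted p = 0.0461). The list's summed level as deposited was 12.55 and 12.66 on the log2 scale with DMSO and 11.43 and 11.63 with nocodazole. The median change of all genes as deposited was -0.45, and the brightest members weigh most in such a sum. With any 1 array left out, and on median-centred values, 0 of these genes passed. The part of the mitotic change in the tubulin values was not tested.

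**Figure D4:**
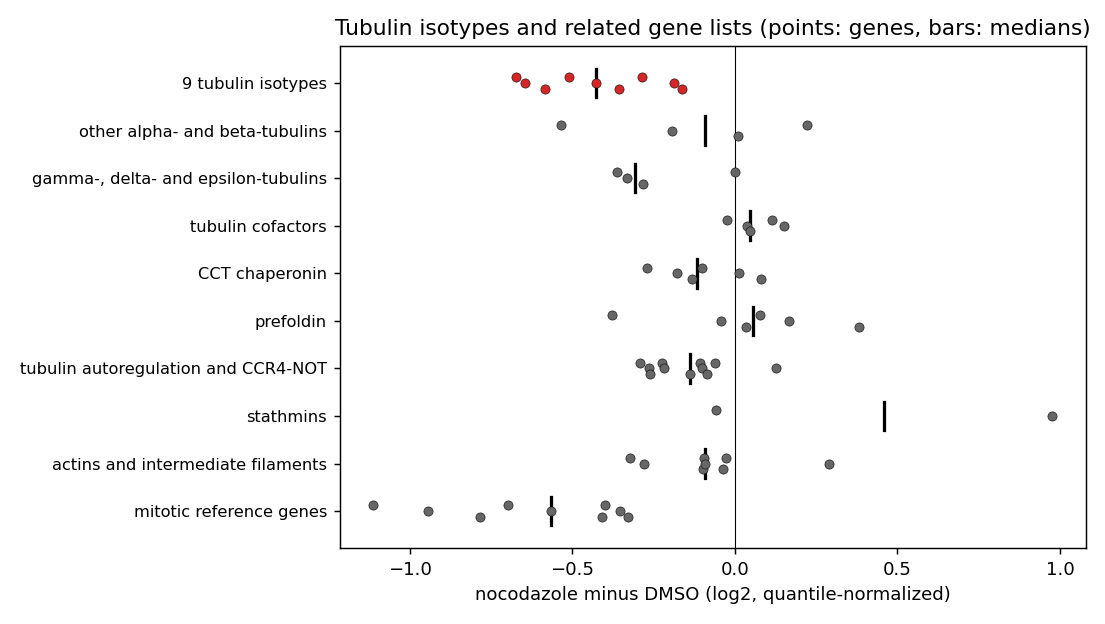
Log2 change, nocodazole minus DMSO after quantile normalization (horizontal axis), of each measured gene (points) in the 9 tubulin isotypes, in red, and in related gene lists, in grey, with black bars at list medians. The isotypes' median is -0.43, between that of the mitotic reference genes at -0.56 and that of the gamma-, delta- and epsilon-tubulins at -0.31, while cofactor and prefoldin medians are 0.05.

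By profile over the 4 arrays after quantile normalization, the genes nearest to the mean of the 9 isotypes were NUAK1, PARP9, ZNF618, USP5 and ST6GALNAC5, at Euclidean distances of 0.026 to 0.032 on the log2 scale, among 16679 genes above background. Their changes ran from -0.44 to -0.40 and none passed limma's test. Of the isotypes TUBA1B lay nearest to that mean, at 0.10, with 82 of those genes nearer, and TUBB6 farthest, at 0.31, with 2580 nearer. With 4 arrays such likeness is a description only.

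Markers of the cell line were checked on the same arrays. All 6 osteoblast lineage genes (RUNX2, SP7, ALPL, COL1A1, COL1A2 and SPARC) lay above the background median on every array, and PTPRC, the pan-leukocyte marker, lay below it on every array. Of all 21469 genes, 16688 lay above that median on every array. CD3E, EPCAM, CDH1 and CDH5, markers of T cells, epithelium and endothelium, were above it on all 4 arrays, at 4.43 to 6.03, and PECAM1, another endothelial marker, on 1, so this bound separates cell types poorly. The osteoblast list's summed level as deposited was 10.71 and 10.68 with DMSO and 9.71 and 9.79 with nocodazole on the log2 scale. In that sum the brightest members, SPARC and COL1A1, weigh most, and the median change of all genes as deposited was -0.45. After quantile normalization 3 of the 6 had changes under 0, the range was -0.69 to 0.41, and 0 passed limma's test. Of the 6, 4 had an unadjusted limma p under 0.05, 3 lower and 1 higher. Of all genes 5.44% were lower with such a p. The part of these genes in the tubulin values was not tested.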

How the data were processed

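Total RNA, 100 ng per sample, was amplified and hybridised to 1 array per sample. Per the submitters' processing notes, the deposited log2 expression values came from Partek 7.0 and RMA, a multi-array average, with hg19 as the build. Settings of the normalization were not given in the sources used. RMA and the range of the values gave the log base. Deposited medians over genes were 5.68 to 6.38 per array, so the columns do not share 1 distribution.

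Of 65535 rows, 1530 control rows were left out of the tests. Rows with exactly 1 symbol in the platform annotation stood for genes, and for the 288 genes with several rows the one with the highest mean was used, leaving 21469 genes. Several symbols stood on 1328 rows and none on 40906. The main values were quantile-normalized over all non-control rows (limma 3.58.1, R 4.3.3). Tests were limma's lmFit and eBayes with a variance trend, two-sided, on all 4 arrays, adjusted by Benjamini-Hochberg over the 21469 genes, at a threshold of 0.05. The fit was tested on simulated data. The number of arrays limits precision.

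The members, the gene lists and the tests were chosen with earlier results of these data known. All members were named with their values, and from each related list at most 3 genes past the threshold on either scale, by size of change. TTC5, SCAPER, STMN2 and the cell type markers were named outside that rule, after their values were seen. The planned comparison of protein sequences was not made, and within-array differences used the other 8 members because TUBB3 had no row of its own. Alternatives were the deposited values, median centring, cyclic loess, normalization over gene rows, no variance trend, no dim genes, the replicate number as a block, the mean of a gene's rows and leaving out each array.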

Additional observations from a re-analysis of the deposited data

How the results depend on the processing

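Under 12 alternatives all 108 isotype changes stayed below 0, but the alternatives reuse the same 4 arrays. Dropping the variance trend or dim genes, blocking by replicate number or averaging a gene's rows left every isotype's change as it was. Those signs were fixed in advance. On the deposited values 8 isotypes were called, as were 5392 genes and 37 genes of the related lists, against 0, 60 and 2 after quantile normalization, and the isotypes' median was -0.80. Median centring left 20 genes called, 0 in the lists, and 2 isotypes without overlap. Cyclic loess called 121 genes, 4 in the lists and 1 isotype, TUBB4B (limma adjusted p = 0.0469). Without dim genes 114 genes were called, 5 in the lists and 1 isotype, TUBB (limma adjusted p = 0.0352), where fewer genes were tested. Without a variance trend 11 genes were called and 0 in the lists. With the replicate number as a block 230 genes were called, 5 in the lists and 0 isotypes. The numbers are not known to pair the samples, since the labels do not say so and only 2 pairs exist; deviations of same-numbered arrays correlated across genes at 0.22 after quantile normalization and 0.41 as deposited. With each array left out in turn, where the lone array of a group is assumed to vary like the other group, the genes called ran from 0 to 11, 0 of the lists' genes were called throughout, and the isotypes' median from -0.53 without DMSO replicate 2 to -0.32 without DMSO replicate 3. On the deposited values, an alternative added after seeing the data, the isotypes called ran from 4 without nocodazole replicate 2 to 7 without nocodazole replicate 3, where 7.42% and 9.77% of all genes were called lower, with 6 without DMSO replicate 2 and 5 without DMSO replicate 3, where 16.9% and 36.2% were. TUBB6's change ran from -0.25 to -0.08 with 1 array left out, and TUBB's from -0.74 to -0.61. Elsewhere the cause was not tested.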
